A study of Mus musculus with 8 samples.

Results

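The Piezo, TRP, polycystin, TMEM63 and TMC genes encode channels that respond, or have been proposed to respond, to mechanical force. They were picked from the gene table by name. The pattern found 39 of the 33249 genes in the table, namely 2 PIEZO, 6 TRPC, 5 TRPV, 8 TRPM, 1 TRPA, 3 mucolipin (TRPML), 4 polycystin, 3 TMEM63 and 7 TMC genes. The 8 transcript models of Piezo1, out of 94947 models in the transcript table, were added.

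The study sequenced poly(A) RNA from mouse myocardium in 8 libraries, 2 in each of 4 groups, to ask what cardiomyocyte deletion of Piezo1 changes after myocardial infarction (MI). The groups labelled fl/fl-Sham and fl/fl-MI are homozygous Piezo1 floxed littermates without Cre, given as WT in the genotype field. Those labelled CKO-Sham and CKO-MI, genotype Piezo1 knockout, also carry the tamoxifen-inducible Myh6-MerCreMer transgene, so all groups share the floxed allele and the deletion is limited to cells in which the Myh6 promoter is active. MI was made in young adult mice by permanent coronary ligation and the hearts labelled MI were taken at day 42, while sham mice had the operation without ligation. The labels do not name the animal behind each library, so p-values measure only the spread between these libraries.

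Piezo channels are large trimeric pores that open when the membrane is stretched and let Ca2+ and other cations into the cell. TRP channels are tetrameric cation channels gated by lipids, Ca2+, heat or osmotic swelling, and direct gating by force is debated for many of them. In the heart these families are studied in endothelial cells, fibroblasts and cardiomyocytes, where they couple wall stress and receptor signals to Ca2+ entry.

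The genotype labels were checked first. Piezo1 had 72.2 and 82.0 CPM (counts scaled to TMM-normalized library sizes) under the fl/fl-Sham label, 76.7 and 88.3 under CKO-Sham, 53.5 and 64.8 under fl/fl-MI and 56.3 and 64.6 under CKO-MI. The gene was thus not lower under the knockout label, and the counts cover every exon and every cell type, so they do not measure the deleted part in cardiomyocytes alone. Esr1, which lends MerCreMer its tamoxifen-binding domains, had 5.52 to 8.36 CPM in all 4 sham libraries and, among MI libraries, 7.75 (fl/fl-MI 1), 331 (fl/fl-MI 2), 707 (CKO-MI 1) and 402 CPM (CKO-MI 2). Its level went against the label in the 2 CKO-Sham libraries and in fl/fl-MI 2, so groups are given as labelled and every direction between genotypes rests on those labels. The library labelled fl/fl-MI 2 also stood apart by its atrial markers. Their sum was 19857 CPM there and 2547 to 4450.3 CPM in the other MI libraries. In those other libraries Nppa alone had 2520 to 4419 CPM and made up nearly all of the sum. Bmp10 had 3834 CPM in fl/fl-MI 2 and 10.3 to 12.6 CPM in the other MI libraries. Myl4 had 2810 CPM and 10.2 to 12.5 CPM, and Myl7 and Sln also stood far higher in fl/fl-MI 2. Among the sham libraries the atrial sum was 594 CPM in CKO-Sham 2 and 135 to 268 CPM in the others. Myl4 had 48.0 CPM in CKO-Sham 2 and 10.8 to 13.7 CPM in the other sham libraries. Cardiomyocyte markers summed to between 20708 and 47581 CPM in all libraries, so the labelled tissue was present in each. The mitochondrial share of counts ran from 43.1% to 46.4% with sham surgery and from 19.9% to 24.2% with MI.

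The sequence that matters most for reading the Piezo1 transcript values is a 3-base difference at the start of exon 6. Piezo1 lies on chromosome 8 of GRCm38 from 122481698 to 122551329 on the minus strand, and both full-length models have 51 exons. They share every exon but exon 6, which spans chr8:122502122-122502311 in the longer model and chr8:122502122-122502308 in the shorter. The junction of exons 5 and 6 reads as follows in the sense direction, with the 3 extra exonic bases in capitals.
ENSMUST00000156333: acccaggagctgCAGgatgatgacgat
ENSMUST00000067252: acccaggagctggatgatgacgat
A read can tell these models, of 8219 and 8216 bases, apart only where it crosses this junction.

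Promoters are shown for Mcoln1, Tmc8 and Tmc6. Mcoln1 was the only tested member called higher after MI in the main test on TMM library sizes. The RefSeq start sites of the neighbours Tmc8 and Tmc6 lie 1605 bases apart and face opposite directions. The sequences are those of RefSeq on GRCm38.p6, from 250 bases before to 50 bases after the start site, and CACGTG, a palindrome known as the E-box core of the lysosomal gene element, is in capitals.
Mcoln1 (chr8:3500269-3500568, plus strand): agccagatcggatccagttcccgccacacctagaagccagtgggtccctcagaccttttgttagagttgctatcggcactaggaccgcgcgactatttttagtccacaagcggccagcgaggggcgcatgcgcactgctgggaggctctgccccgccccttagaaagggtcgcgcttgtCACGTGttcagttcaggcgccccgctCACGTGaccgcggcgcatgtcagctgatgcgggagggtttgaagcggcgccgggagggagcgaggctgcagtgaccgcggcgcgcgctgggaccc
Tmc8 (chr11:117782047-117782346, plus strand): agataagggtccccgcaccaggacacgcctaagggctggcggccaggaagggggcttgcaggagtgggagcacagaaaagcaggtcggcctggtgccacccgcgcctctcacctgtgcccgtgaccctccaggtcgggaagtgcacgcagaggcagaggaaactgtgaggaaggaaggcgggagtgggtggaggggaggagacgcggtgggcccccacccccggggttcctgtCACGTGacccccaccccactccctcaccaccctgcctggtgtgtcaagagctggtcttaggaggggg
Tmc6 (chr11:117780643-117780942, minus strand): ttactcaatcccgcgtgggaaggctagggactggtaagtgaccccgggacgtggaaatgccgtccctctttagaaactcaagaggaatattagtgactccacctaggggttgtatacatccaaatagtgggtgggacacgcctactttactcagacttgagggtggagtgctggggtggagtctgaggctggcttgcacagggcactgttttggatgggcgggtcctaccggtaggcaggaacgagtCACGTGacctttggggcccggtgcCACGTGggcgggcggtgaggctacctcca
Mcoln1 and Tmc6 hold the motif 2 times each and Tmc8 holds it 1 time. In Mcoln1 the matches begin 71 and 45 bases before the start site. Of the 32 members whose promoter was searched, 7 hold it (21.9%), against 7.15% of all 32851 promoters of this length. Among the 14 tested members of this set the holders were Mcoln1, Tmc6, Tmc8 and Trpm7, which did not share a direction after MI.

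Levels per gene length were compared on the authors' FPKM, fragments per kilobase of transcript, scaled to library size. The order over the 8 libraries was led by Pkd2 with a mean of 11.3 FPKM, Tmem63b with 10.9 and Pkd1 with 10.7, then Trpm7 with 7.95, Tmem63a with 7.27, Piezo1 with 6.73 and Tmc6 with 4.96. A middle group followed with Mcoln1 at 2.84, Pkd2l2 at 2.77, Trpv4 at 2.60, Trpm4 at 2.24 and Tmc8 at 1.90 FPKM. The lowest tested members were Trpv2 at 1.22, Tmc4 at 1.10, Trpc1 at 1.01, Tmc7 at 0.605 and Tmc5 at 0.578 FPKM. Neighbours in this order overlapped in their ranges over libraries. Pkd2 ranged from 6.13 to 23.1, Tmem63b from 7.91 to 15.1 and Pkd1 from 5.19 to 24.5 FPKM, so these genes were not separated.

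**Figure D1:**
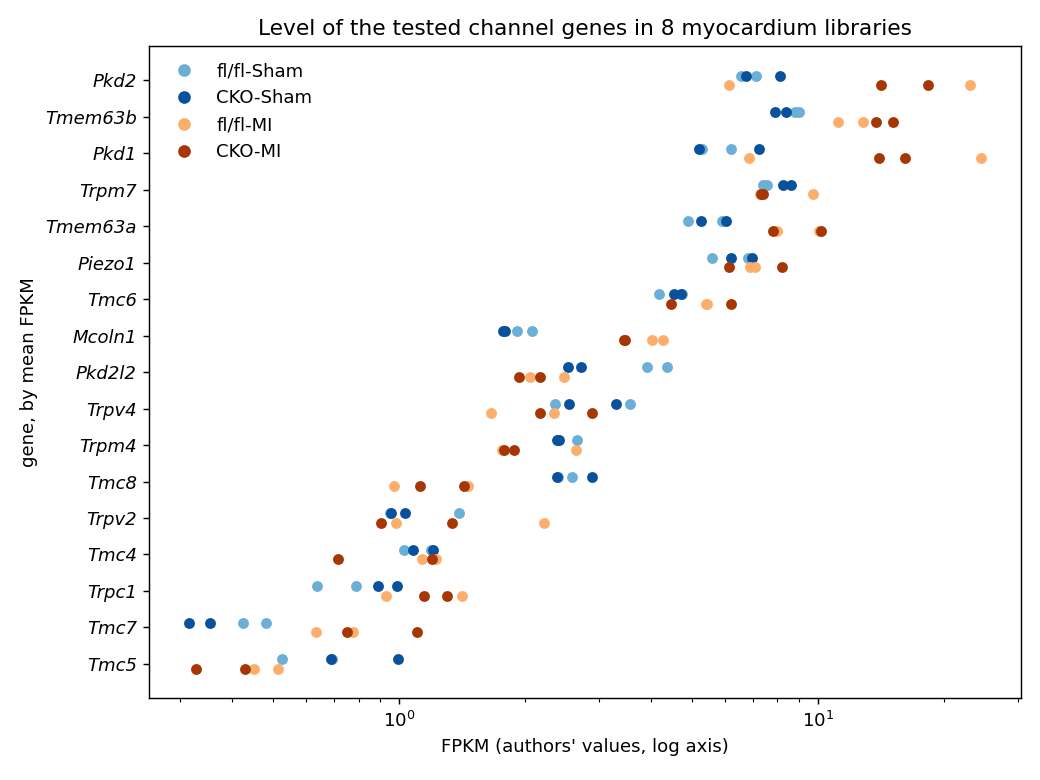
FPKM of 17 tested members on a log axis, 1 point per library, coloured by labelled group, with sham libraries above and MI libraries below each line. Pkd1 and Pkd2 spread most after MI (6.86 to 24.5 and 6.13 to 23.1 FPKM), while Tmc8 shows its MI points to the left of all sham points.

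The other 21 members had a mean below 0.5 FPKM and were left out of the main test. They were Piezo2, Mcoln2, Mcoln3, Tmem63c, Trpa1, Trpc2, Trpc4, Trpc5, Trpc6, Trpm1, Trpm2, Trpm3, Trpm5, Trpm6, Trpm8, Trpv1, Trpv3, Trpv6, Pkd2l1, Tmc1 and Tmc3. Of these, 9 had a count in all 8 libraries and 12 were listed at 0 in at least 1 library.

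The comparison of MI with sham over both genotypes asked which channels differ in the infarcted heart. It was made with edgeR's quasi-likelihood test on 14028 genes, and a gene was called at a Benjamini-Hochberg adjusted p under 0.05. Among the 18 tested members 10 were called, 9 lower and 1 higher after MI, where 40.4% of all tested genes were called, 18.3% lower and 22% higher. Tmc5, 1 of the 9 lower, owed its mean above 0.5 FPKM to its sham libraries. The median log2 fold change of the members was -0.37 and that of all tested genes 0.03. All 4 MI libraries lay below all 4 sham libraries for 10 members, against 19.5% of all genes, and above them for 1 member, against 20.9% of all genes. An exact permutation test of a single gene over 4 and 4 libraries cannot go below p = 0.0286. Any gene without overlap reaches that value by construction, as those 11 members did, so it adds nothing to their counts. Directions are relative to the other genes. Without the TMM factor, on total counts, the median of all genes rose to 0.59 and that of the members to 0.19, and 7 members were called higher and 4 lower, where 52.2% and 5.72% of all genes were. Since the myocardium holds many cell types, fewer cells of a type and less RNA per cell cannot be told apart.

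**Figure D2:**
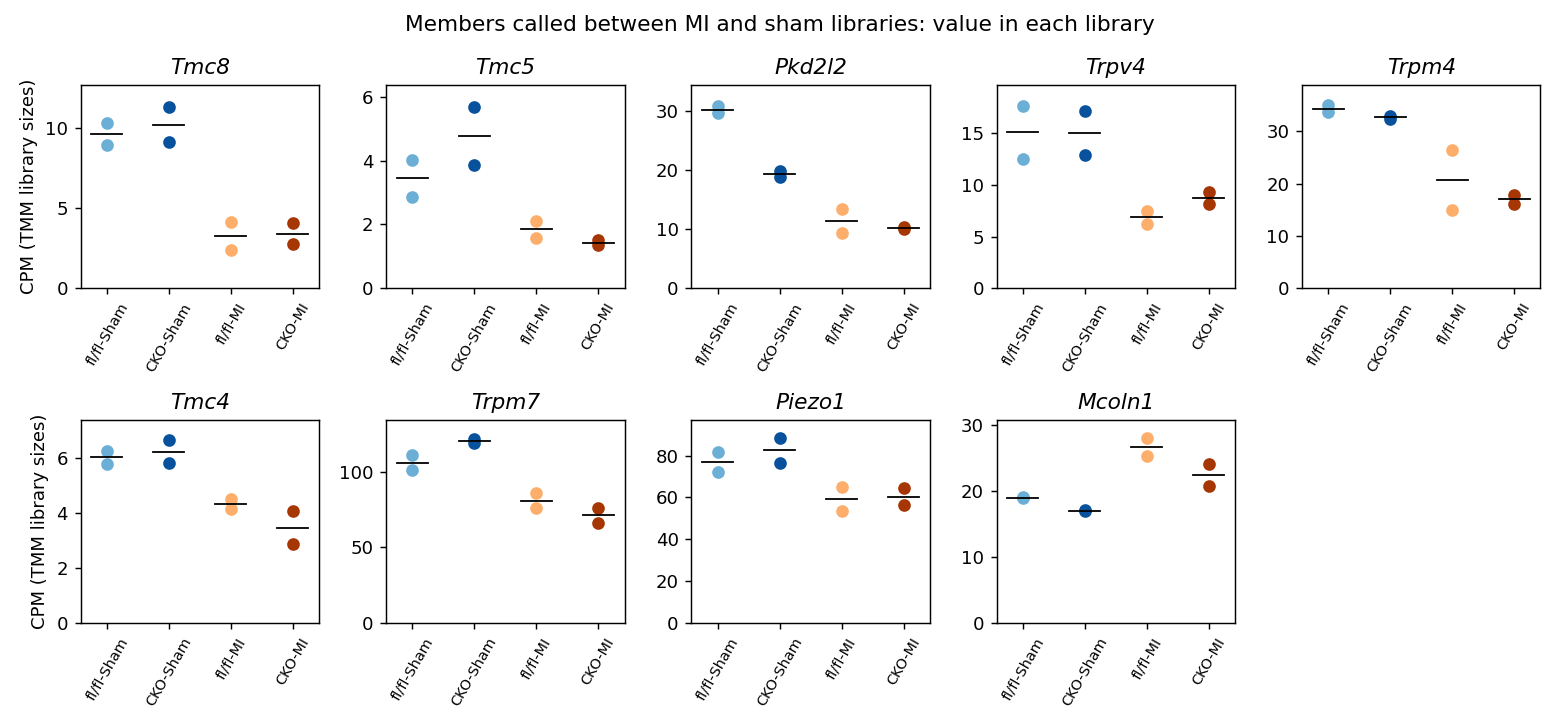
CPM on TMM library sizes in each library (points) and the mean of each labelled group (lines) for 9 members called between MI and sham, each axis starting at 0. In all 9 genes the 4 MI points lie on one side of the 4 sham points.

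Piezo1, the stretch-gated channel that the study deleted, was lower after MI relative to other genes. Its mean was 79.8 CPM ± 6.91 (SD, n = 4) in the sham libraries and 59.8 CPM ± 5.75 (SD, n = 4) in the MI libraries, with no overlap. The log2 fold change was -0.42 (SE 0.12, adjusted p = 0.027 in edgeR). On total counts it was 0.14 (adjusted p = 0.401 in edgeR), so the direction of Piezo1 depended on the scaling. The call was also lost when either fl/fl-Sham library, either CKO-Sham library or the library labelled CKO-MI 1 was left out (-0.36 to -0.46, adjusted p = 0.058 to 0.106 in edgeR). Ctu2, a tRNA modification gene, overlaps Piezo1 on the other strand, and whether the counting used strand is not given in the sources used here.

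No difference in Piezo1 between genotypes passed the test. With MI, the CKO label stood 0.03 above the fl/fl label on the log2 scale (95% interval -0.35 to 0.42, adjusted p = 0.972 in edgeR). With sham surgery the same difference was 0.10 (95% interval -0.29 to 0.48, adjusted p = 1 in edgeR). The change with MI differed between genotypes by -0.07 (95% interval -0.61 to 0.48, adjusted p = 0.962 in edgeR). Without the library labelled fl/fl-MI 2 the CKO-MI difference was 0.18 (adjusted p = 0.749 in edgeR), and without fl/fl-MI 1 it was -0.08 (adjusted p = 0.777 in edgeR).

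Within Piezo1, the 2 full-length coding models carried 76.4% to 89.2% of the summed transcript FPKM. Their sum was 6.37 and 7.47 FPKM under the fl/fl-Sham label, 7.01 and 7.78 under CKO-Sham, 7.98 and 8.09 under fl/fl-MI and 7.07 and 9.55 under CKO-MI. The sham and MI libraries overlapped on this scale. The shorter model, ENSMUST00000067252, was listed at 0 in both libraries labelled CKO-Sham and at 1.44 and 3.30 FPKM in those labelled fl/fl-Sham. After MI it was at 2.36 and 2.19 FPKM in fl/fl-MI and at 3.95 and 2.90 FPKM in CKO-MI. The longer model, ENSMUST00000156333, had its 2 highest values, 7.01 and 7.78 FPKM, in the CKO-Sham libraries where the other was at 0. Its lowest value, 3.12 FPKM, was in the library labelled CKO-MI 1, where the shorter model was highest. Reads across the junction shown above were not counted here, and a difference in its use was not tested.

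The third model with a mean above 0.5 FPKM was ENSMUST00000123671, a retained-intron transcript of 3 exons. It was at 1.13 and 2.13 FPKM in fl/fl-Sham, 1.35 and 1.75 in CKO-Sham, 0.972 and 1.25 in fl/fl-MI, and 1.03 and 1.09 in CKO-MI. Its log2 fold change on transcript counts was -1.02 with MI (SE 0.31, adjusted p = 0.0777 in edgeR), and that of the longer full-length model was -0.63 (SE 0.23, adjusted p = 0.114 in edgeR). In this fit 16.9% of 26966 transcripts were called. The shorter full-length model was called with MI (adjusted p = 0.00792 in edgeR). It was also called between the sham groups (adjusted p = 0.048 in edgeR, where 0.126% of transcripts were called). Its fitted fold is not given because of the listed zeros, which were all in the libraries labelled CKO-Sham. Its values in fl/fl-Sham (1.44 and 3.30 FPKM) and in fl/fl-MI (2.36 and 2.19 FPKM) overlapped. Under the CKO-MI label against the fl/fl-MI label, 0 of the 3 models and 0 of all transcripts were called. The adjusted p was 1 in edgeR for each of the 3, with unadjusted values of 0.237, 0.434 and 0.869. The remaining 5 models stayed at or below 0.294 FPKM.

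**Figure D3:**
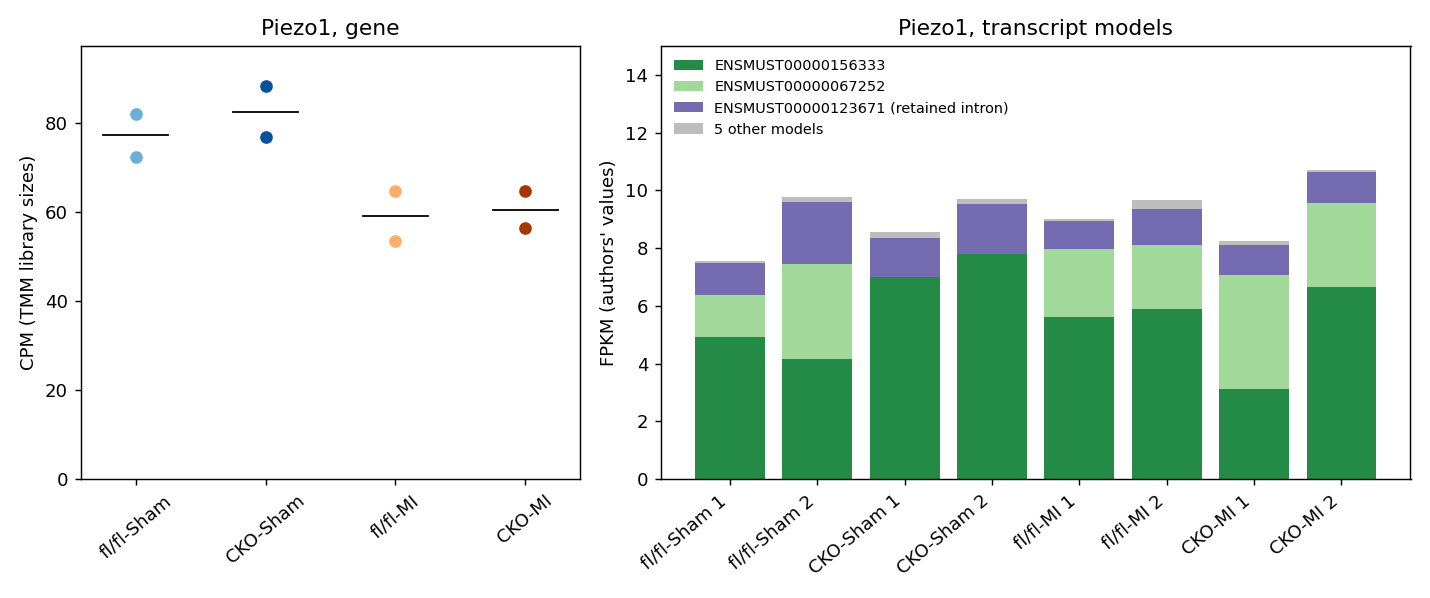
Left, Piezo1 gene CPM per library with group means, axis from 0. Right, stacked FPKM of the Piezo1 transcript models in each library. The light green model is missing from both CKO-Sham libraries, where the dark green model takes 7.01 and 7.78 FPKM, and the whole stacks run from 7.54 to 10.7 FPKM over the libraries.

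Piezo2, the channel of touch and proprioceptive neurons, was far lower in level. It had 1.38 and 1.16 CPM under the fl/fl-Sham label, 2.51 and 2.47 under CKO-Sham, 8.47 and 7.45 under fl/fl-MI and 4.08 and 9.96 under CKO-MI. All MI libraries lay above all sham libraries. In a fit without the filter on low values its log2 fold change with MI was 2.14 (SE 0.28, adjusted p = 0.000238 in edgeR), and 2.66 on total counts. The level per length stayed below 1 FPKM in every library, at most 0.73 FPKM.

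The TRPC channels open after receptors activate phospholipase C, and several respond to its product diacylglycerol. Trpc1, which also takes part in store-operated Ca2+ entry, had 6.25 to 9.92 CPM in the sham libraries and 6.88 to 9.65 CPM in the MI libraries, with full overlap. The log2 fold change was -0.03 (95% interval -0.44 to 0.39, adjusted p = 0.918 in edgeR), and 0.54 on total counts, close to the 0.59 of all genes there. Trpc6 was at most 0.66 CPM, Trpc4 at most 0.444 CPM and Trpc5 at most 0.0483 CPM. Trpc2 was listed at 0 in 5 libraries and shares its locus and strand with Xntrpc and Xndc1, so its counts are uncertain.

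Steps upstream of these channels also differed with MI. Of 15 tested receptor, phospholipase C and diacylglycerol kinase genes, 8 were lower, 3 higher and 4 not called, with a median log2 fold change of -0.32, where 18.3% of all tested genes were lower and 22% higher. Plcg1, a phospholipase C downstream of tyrosine kinase receptors, fell from between 154 and 169 CPM in the sham libraries to between 64.0 and 65.8 CPM after MI (log2 fold change -1.31, SE 0.09, adjusted p = 0.000431 in edgeR). The diacylglycerol kinases Dgka and Dgkz, which consume diacylglycerol, fell by 0.99 and 1.07 on the log2 scale (adjusted p = 0.000746 and adjusted p = 0.00115 in edgeR). Plcb1, a Gq-coupled phospholipase C, fell by 1.23 (adjusted p = 0.00102 in edgeR). Plce1, Ednra and Plcg2 were the higher members of this list.

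Of 11 tested store-operated Ca2+ entry genes, 2 were higher, 2 lower and 7 not called, with a median of -0.12, a share called near the 40.4% of all tested genes. Cracr2b, a Ca2+-binding regulator of this entry, fell by 1.75 on the log2 scale (SE 0.10, adjusted p = 0.000347 in edgeR), and the low gene Tmem178 fell by 1.71 (adjusted p = 0.00785 in edgeR). Homer1, a scaffold that also binds TRPC channels, rose by 1.09 (adjusted p = 0.00752 in edgeR) and Saraf, an inactivator of store-operated entry, by 0.52 (adjusted p = 0.00874 in edgeR). The sensors Stim1 and Stim2 and the pores Orai1, Orai2 and Orai3 were not called.

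TRPV4 responds to osmotic swelling, lipids and shear stress and is well studied in endothelium and fibroblasts. Trpv4 had 12.5 and 17.7 CPM under the fl/fl-Sham label, 12.9 and 17.2 under CKO-Sham, 7.52 and 6.24 under fl/fl-MI and 8.16 and 9.34 under CKO-MI. Every MI library lay below every sham library, and the log2 fold change was -0.96 (SE 0.17, adjusted p = 0.00601 in edgeR). On total counts it was -0.39 (adjusted p = 0.16 in edgeR), so the call, though not the direction, depended on the scaling.

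Trpv2, a channel placed at the intercalated disc of cardiomyocytes, had 5.53 to 7.60 CPM in the sham libraries. After MI the library labelled fl/fl-MI 1 was the highest of all 8, at 7.80 CPM, with 3.77 to 4.75 CPM in the other MI libraries. The log2 fold change was -0.28 (95% interval -0.86 to 0.30, adjusted p = 0.395 in edgeR), and it reached -0.57 (adjusted p = 0.0441 in edgeR) once fl/fl-MI 1 was left out. On total counts the sign turned to 0.30. Trpv1, Trpv3 and Trpv6 had at most 1.17 CPM in any library. Trpv3 was called lower (-1.74) and Trpv6 higher in the fit without a filter, where Trpv6 was listed at 0 in 3 of 4 sham libraries and reached at most 0.447 CPM.

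On TMM library sizes, endothelial markers moved in the same direction as the 9 members called lower, among them Trpv4 and Piezo1. On total counts Trpv4 was at -0.39 and Piezo1 at 0.14. All 7 of 7 endothelial markers were called lower after MI, where 18.3% of all tested genes were. Their sum was 1698 to 1889.9 CPM in the sham libraries and 541 to 806 CPM in the MI libraries, with none of the 7 at 0. Of the smooth muscle and pericyte markers 4 of 7 were lower, with sums of 1466 to 1599 CPM and 589 to 858 CPM. The part of these cell types in the channel differences was not tested.

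TRPM4 and TRPM7 serve different roles. TRPM4 is a monovalent cation channel opened by intracellular Ca2+ and linked to cardiac conduction. Trpm4 had 33.7 and 35.0 CPM under the fl/fl-Sham label, 32.5 and 33.0 under CKO-Sham, 14.9 and 26.4 under fl/fl-MI and 17.8 and 16.1 under CKO-MI. The sham values were tight and the library labelled fl/fl-MI 2 lay between them and the other MI libraries. MI against sham gave a log2 fold change of -0.84 (SE 0.18, adjusted p = 0.00977 in edgeR), -1.08 without the library labelled fl/fl-MI 2 and -0.30 on total counts (adjusted p = 0.122 in edgeR).

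TRPM7 fuses a Mg2+- and Ca2+-permeable pore to a kinase. Trpm7 had 111 and 101 CPM under the fl/fl-Sham label, 122 and 119 under CKO-Sham, 86.2 and 75.8 under fl/fl-MI and 76.4 and 66.3 under CKO-MI. The groups did not overlap, and the log2 fold change was -0.57 (SE 0.10, adjusted p = 0.00541 in edgeR). On total counts it was -0.01 (adjusted p = 0.932 in edgeR), where the median of all genes was 0.59.

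Among the low TRPM genes, Trpm2, an ADP-ribose-gated channel of phagocytes, had 1.37 to 1.50 CPM in the sham libraries and 5.03 and 3.07 CPM in the libraries labelled fl/fl-MI. In those labelled CKO-MI it had 1.06 and 1.65 CPM, so its MI libraries did not move together. Without a filter Trpm2 was called higher in fl/fl-MI against fl/fl-Sham (1.53, adjusted p = 0.043 in edgeR). In CKO-MI against CKO-Sham it was at 0.07 and not called. The interaction was not called either (-1.47, adjusted p = 0.744 in edgeR). Macrophage markers summed to 1130.3 and 799 CPM in fl/fl-MI, to 439 and 736 CPM in CKO-MI and to 454 to 505 CPM in the sham libraries, and their part was not tested. Trpm3 had 5.54 to 8.78 CPM in the sham libraries and 2.86 to 3.50 CPM after MI (log2 fold change -1.06, adjusted p = 0.00551 in edgeR without a filter, and -0.56 with adjusted p = 0.14 on total counts). Trpm6, the Mg2+ channel related to TRPM7, went the other way, from 0.443 to 1.16 CPM up to 1.19 to 2.28 CPM (1.33, adjusted p = 0.0278 in edgeR without a filter). Trpm1, Trpm5 and Trpm8 had at most 0.341 CPM.

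In the fit without a filter, where 17.1% of 33249 genes were called, 4 of the 21 low members were higher after MI (10.3% of all genes), 2 lower (6.77%) and 15 not called. The higher ones were Piezo2, Tmem63c, Trpm6 and Trpv6. These stayed called on total counts, while Trpm3 and Trpv3 did not. Trpm2 was not called on TMM (0.80, adjusted p = 0.0876 in edgeR) and was called higher on total counts (1.31, adjusted p = 0.015 in edgeR).

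Mcoln1 encodes TRPML1, the Ca2+ release channel of the lysosome. It was the only tested member called higher after MI in the main test on TMM library sizes. It had 18.9 and 19.1 CPM under the fl/fl-Sham label, 16.9 and 17.1 under CKO-Sham, 25.2 and 27.9 under fl/fl-MI and 24.0 and 20.7 under CKO-MI. All MI libraries lay above all sham libraries. The difference was 0.44 on the log2 scale (SE 0.10, adjusted p = 0.0129 in edgeR), and on total counts 0.99 (adjusted p = 0.000361 in edgeR). Leaving out either fl/fl-Sham library, CKO-Sham 1 or CKO-MI 1 moved the adjusted p to between 0.0549 and 0.0573 in edgeR, with log2 fold changes of 0.36 to 0.44.

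Of 8 lysosomal neighbours of Mcoln1, 2 were higher after MI, 0 lower and 6 not called, with a median of 0.02, a share higher near the 22% of all tested genes. The membrane glycoproteins Lamp2 and Lamp1 rose by 0.94 and 0.62 on the log2 scale (adjusted p = 0.00118 and adjusted p = 0.00601 in edgeR), Lamp2 from 109 to 133 CPM in the sham libraries up to 207 to 250.2 CPM after MI. The endolysosomal cation channels Tpcn1 and Tpcn2 and Tfeb, the transcription factor of lysosomal genes, had log2 fold changes of 0.27, -0.26 and -0.07 and were not called. Mcoln2 and Mcoln3 stayed at or below 1.30 and 0.196 CPM.

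Polycystin-1 and polycystin-2, the products of Pkd1 and Pkd2, form the receptor-channel complex known from primary cilia and the kidney. Pkd1 had 119.9 and 131 CPM under the fl/fl-Sham label, 113 and 161 under CKO-Sham, 334 and 110.0 under fl/fl-MI and 225 and 223 under CKO-MI. Pkd2 had 86.6 and 87.8 CPM under the fl/fl-Sham label, 85.2 and 106 under CKO-Sham, 184 and 57.4 under fl/fl-MI and 133 and 147 under CKO-MI. Both genes were above every sham library in 3 MI libraries and below every sham library in the library labelled fl/fl-MI 2. With all libraries on TMM neither was called (Pkd1 0.76, SE 0.33, adjusted p = 0.101, and Pkd2 0.51, SE 0.33, adjusted p = 0.25, in edgeR). The calls depended on the processing. On total counts both were called higher (1.35 and 1.10, adjusted p = 0.0137 and adjusted p = 0.0329 in edgeR), where the median of all genes was 0.59. DESeq2 called Pkd1 higher but not Pkd2.

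Without the library labelled fl/fl-MI 2, Pkd1 rose by 1.06 (adjusted p = 0.000819 in edgeR) and Pkd2 by 0.81 (adjusted p = 0.00092 in edgeR), and 13 members were called in all, where 50.7% of all genes were. Without the library labelled fl/fl-MI 1, the values were 0.24 (adjusted p = 0.191 in edgeR) and -0.05 (adjusted p = 0.754 in edgeR). The 2 libraries labelled fl/fl-MI thus stood on opposite sides of the sham range for this pair. Fibroblast marker sums were 5257 CPM in fl/fl-MI 1, 1864 CPM in fl/fl-MI 2, 2708 and 4624 CPM in CKO-MI and 1267 to 1366 CPM in the sham libraries. With all libraries 5 of 7 fibroblast markers were called higher, where 22% of all tested genes were, and none was at 0. Their part in the Pkd1 and Pkd2 levels was not tested. Pkd1 overlaps Tsc2 on the other strand.

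**Figure D4:**
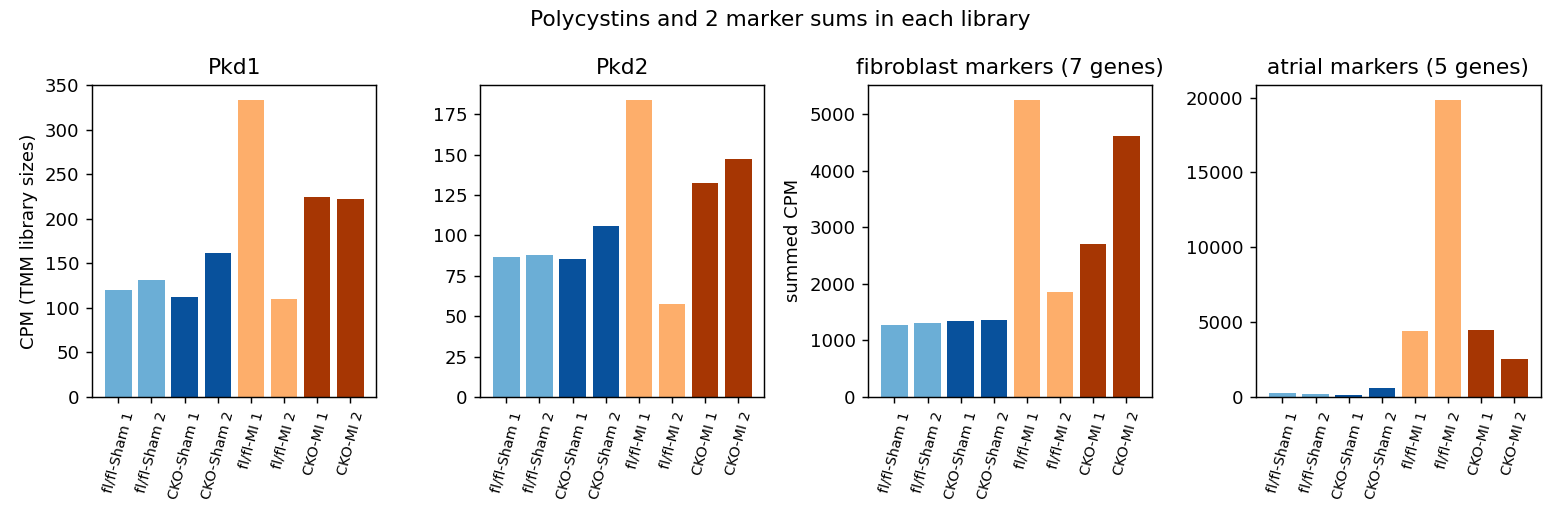
CPM of Pkd1 and Pkd2, and summed CPM of 7 fibroblast and 5 atrial markers, in each library, with all axes from 0. Pkd1 and Pkd2 are highest in fl/fl-MI 1 (334 and 184 CPM) and lowest in fl/fl-MI 2 (110.0 and 57.4 CPM), the library with the highest atrial sum (19857 CPM).

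Pkd2l2, a little-studied relative of Pkd2 that overlaps Fam13b on the other strand, went down in every MI library. It had 29.5 and 30.7 CPM under the fl/fl-Sham label, 19.7 and 18.8 under CKO-Sham, 9.32 and 13.3 under fl/fl-MI and 10.3 and 9.99 under CKO-MI. The log2 fold change with MI was -1.17 (SE 0.14, adjusted p = 0.00131 in edgeR) and -0.62 on total counts (adjusted p = 0.00662 in edgeR). The sham groups did not overlap either, as both libraries labelled CKO-Sham lay below both labelled fl/fl-Sham. Pkd2l1 had a count in 1 library only.

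The TMEM63 proteins are stretch- and osmotically gated cation channels related to the OSCA family of plants. Tmem63a had 28.5 to 34.8 CPM in the sham libraries and 32.3 to 36.1 CPM in the MI libraries (log2 fold change 0.13, 95% interval -0.11 to 0.37, adjusted p = 0.332 in edgeR). Tmem63b had 50.3 to 58.5 CPM and 44.5 to 64.8 CPM (0.07, 95% interval -0.22 to 0.35, adjusted p = 0.686 in edgeR). Both pairs of ranges overlapped. On total counts the pair was called higher, at 0.70 and 0.62, near the median of 0.59 for all genes on that scale. Tmem63c was low, with 0.218 to 0.512 CPM in the sham libraries and 0.603 to 2.02 CPM after MI (2.12, adjusted p = 0.00918 in edgeR without a filter).

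TMC1 is the pore of hair cell mechanotransduction, and Tmc1 was at most 0.177 CPM here. The expressed TMC genes were Tmc4, Tmc5, Tmc6, Tmc7 and Tmc8, whose products have no established role in cardiac mechanosensing. Tmc6 and Tmc8, known as EVER1 and EVER2 from human susceptibility to papillomaviruses, bind a zinc transporter. In the deposited gene coordinates, which reach beyond the RefSeq start sites used above, their spans overlap on opposite strands. Tmc8 had 10.3 and 8.94 CPM under the fl/fl-Sham label, 9.11 and 11.3 under CKO-Sham, 2.36 and 4.14 under fl/fl-MI and 4.04 and 2.72 under CKO-MI. It was 2.99-fold lower after MI with no overlap (log2 fold change -1.58, SE 0.24, adjusted p = 0.00324 in edgeR). On total counts it was -1.04 (adjusted p = 0.0043 in edgeR), so the call did not rest on the scaling.

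Tmc6, its neighbour, had 22.2 to 24.0 CPM in the sham libraries and 16.8 to 20.4 CPM after MI, again with no overlap, but a smaller difference. The log2 fold change was -0.32 (SE 0.11, adjusted p = 0.0508 in edgeR), just outside the threshold, and 0.24 on total counts. With all libraries Tmc6 was called lower with RLE size factors, TMM without mitochondrial genes, a filter of at least 1 FPKM and DESeq2. Tmc6 was not called without a filter, with counts divided by 4 or with either replicate block. It was called in edgeR without either fl/fl-MI library or without CKO-MI 2 (adjusted p = 0.0197 to 0.0497).

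Tmc5 and Tmc4 were low and decreased. Tmc5 had 2.86 to 5.69 CPM in the sham libraries and 1.35 to 2.11 CPM in the MI libraries (log2 fold change -1.32, SE 0.24, adjusted p = 0.00632 in edgeR, and -0.76 on total counts, adjusted p = 0.0336). It owed its place above the filter to the sham libraries, at 0.526 to 0.996 FPKM against 0.327 to 0.513 FPKM with MI. In the fit without a filter Tmc5 was also called lower. Tmc4 had 5.78 to 6.65 CPM and 2.85 to 4.51 CPM (-0.66, SE 0.18, adjusted p = 0.0248 in edgeR, and -0.10 on total counts, adjusted p = 0.736). The Tmc4 call was lost in edgeR without any 1 sham library or without CKO-MI 1 (-0.57 to -0.71, adjusted p = 0.0585 to 0.089). Tmc4 overlaps Leng1 on the same strand, so some of its reads may belong to that gene. Tmc7 had 2.34 to 3.62 CPM in the sham libraries, 5.88 CPM in CKO-MI 1 as labelled and 3.37 to 3.52 CPM in the other MI libraries (0.50, 95% interval -0.05 to 1.04, adjusted p = 0.124 in edgeR). On total counts Tmc7 was called higher (1.04, adjusted p = 0.00621 in edgeR), where the median of all genes was 0.59. It was also called higher with limma on log2(FPKM + 1) (0.38, adjusted p = 0.02). Tmc7 owed its place above the filter to the MI libraries, at 0.634 to 1.10 FPKM against 0.315 to 0.481 FPKM with sham surgery.

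Members that kept both direction and call on TMM, on total counts and with limma on log2(FPKM + 1) included Tmc8 and Pkd2l2 on the lower side and Mcoln1 on the higher side. Tmc5, which passed the filter through its sham libraries, kept its call on total counts but not in limma (-0.27, adjusted p = 0.0689). Trpm7, Trpv4, Trpm4 and Tmc4 were called lower on TMM and were not called, with the same sign, on total counts.

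**Figure D5:**
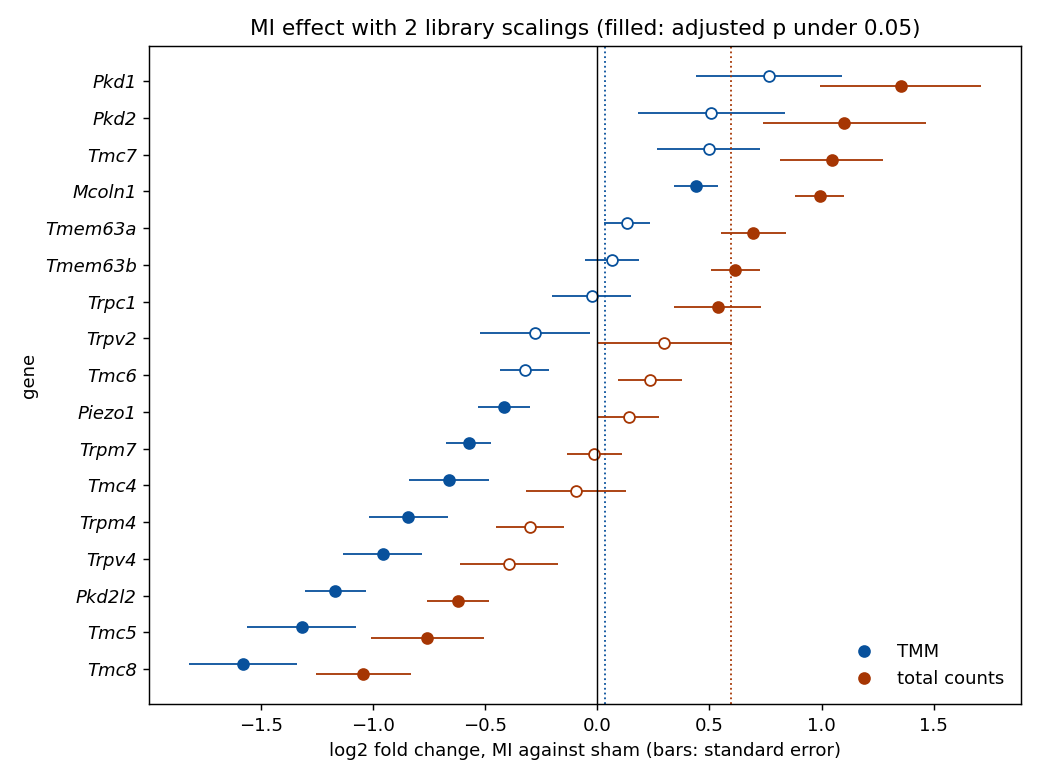
Log2 fold change of MI against sham for 17 tested members, with standard errors, on TMM library sizes (blue) and total counts (brown). Filled points have an adjusted p under 0.05 in edgeR, and the dotted lines mark the medians of all genes, 0.03 and 0.59. Tmc8, Tmc5 and Pkd2l2 are filled to the left of 0 on both scales and Mcoln1 to the right.

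Because Esr1 did not follow the genotype labels, the MI comparison was repeated without genotype in the fit, a choice made after seeing the data. It called 11 members, the same 10 and Tmc6, where 41.7% of all genes were called. With the 2 CKO-Sham libraries and fl/fl-MI 2 also left out, 9 members were called, where 32.7% of all genes were. This fit set the 2 fl/fl-Sham libraries against fl/fl-MI 1 and the 2 CKO-MI libraries. MI and the labelled genotype therefore cannot be told apart in it. Pkd1 and Pkd2 were then higher (1.05 and 0.82, adjusted p = 0.014 and adjusted p = 0.0139 in edgeR) and the lower ones included Trpm7, Pkd2l2, Trpv4, Trpm4, Tmc8 and Tmc5. Piezo1 (-0.41, adjusted p = 0.0567 in edgeR), Mcoln1 (0.30, adjusted p = 0.124 in edgeR) and Tmc4 were not called in that fit.

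Within each labelled genotype, 2 libraries were compared with 2, and an exact test of a single gene cannot reach the threshold at that size. In edgeR the comparison of fl/fl-MI with fl/fl-Sham called 4 members, all lower, where 18.5% of all genes were called and 8.45% were called lower. Among them were Pkd2l2 (-1.41, SE 0.19, adjusted p = 0.00704), Tmc8 (-1.57, SE 0.34, adjusted p = 0.0247) and Trpv4 (-1.13, SE 0.25, adjusted p = 0.0253). Leaving out fl/fl-MI 1 or fl/fl-MI 2 gave 7 members called, where 29.8% and 29.5% of all genes were. With fl/fl-Sham 1 or fl/fl-Sham 2 left out, 0 members were called, where 0.898% and 0.848% of all genes were.

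The comparison of CKO-MI with CKO-Sham called 6 members in edgeR, all lower, where 24.7% of all genes were called and 11.9% were called lower. Trpm7 (-0.76, SE 0.14, adjusted p = 0.0136), Tmc5 (-1.74, SE 0.35, adjusted p = 0.0159) and Pkd2l2 (-0.92, SE 0.19, adjusted p = 0.0177) were among them, as were Tmc8 and Trpm4. Without CKO-Sham 1, CKO-Sham 2 or CKO-MI 2, 0 members were called, where 0.178%, 5.09% and 10.1% of all genes were, and without CKO-MI 1 there was 1, where 8.74% were. Leaving out fl/fl-MI 1 gave 13 members (41% of all genes) and leaving out fl/fl-MI 2 gave 12 (41.3% of all genes), as all groups share the estimate of the spread.

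The genotype comparisons asked whether other mechanosensitive channels differ under the Piezo1 knockout label. Between CKO-MI and fl/fl-MI, 0 of the 18 members and 0% of all genes were called in edgeR, and DESeq2 called 0 members and 1.48% of all genes. At an unadjusted p under 0.05 there was 1 member, where 8.31% of all genes passed. Mcoln1 (-0.25, SE 0.14, adjusted p = 0.689 in edgeR) and Tmem63b (0.27, SE 0.17, adjusted p = 0.726 in edgeR) did not pass.

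This comparison depended on which fl/fl-MI library was kept. Without fl/fl-MI 1, 4 members were called in edgeR (11.9% of all genes), among them Pkd2 (1.30) and Pkd1 (1.04) higher and Trpm4 (-0.62) lower. Without fl/fl-MI 2, which carries the Esr1 signal against its label, 0 members were called (0.192% of all genes). Pkd2 and Pkd1 then had the opposite sign, at -0.40 and -0.58.

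Between CKO-Sham and fl/fl-Sham, 0 members were called in edgeR (0.00713% of all genes) and 0 in DESeq2 (0.242% of all genes). At an unadjusted p under 0.05 there was 1 member, Pkd2l2, where 3.89% of all genes passed. Its log2 fold change was -0.64 (SE 0.19, adjusted p = 1 in edgeR). Trpc1 (0.40, SE 0.25) and Tmc5 (0.47, SE 0.34) followed, with adjusted p = 1 each. The test of whether genotype and MI interact called 0 members in edgeR (0% of all genes) and 0 in DESeq2 (0.952% of the genes with an adjusted p), and 0 members had an unadjusted p under 0.05, against 8.49% of all genes. The smallest p here were those of Tmc7 (0.86, SE 0.46), Pkd2l2 (0.49, SE 0.27) and Trpm7 (-0.37, SE 0.20), with adjusted p = 0.635, adjusted p = 0.653 and adjusted p = 0.654. Without fl/fl-MI 1, Pkd2 was the 1 member called in this test, where 5.35% of all genes were.

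Genes of partner proteins and of other stretch- or volume-related channels were counted for the MI comparison, in which 40.4% of all tested genes were called. Of 5 tested auxiliary partners 2 were higher, 1 lower and 2 not called. Cdh23, the tip link cadherin of hair cells, fell from 24.3 to 28.2 CPM in the sham libraries to 1.16 to 4.78 CPM after MI (log2 fold change -3.37, SE 0.42, adjusted p = 0.00165 in edgeR). Mdfi, a PIEZO-binding protein family member, rose by 1.57 (adjusted p = 0.0119 in edgeR) and its relative Mdfic had -0.25 (adjusted p = 0.497 in edgeR). Tmem33, an endoplasmic reticulum protein that binds polycystin-2, rose by 0.77 (adjusted p = 0.00632 in edgeR).

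Of 9 tested other stretch or swelling channels 1 was higher, 1 lower and 7 not called, with a median of -0.14, where 22% of all tested genes were higher and 18.3% lower. Lrrc8c, a subunit of the volume-regulated anion channel, fell from 55.3 to 68.6 CPM in the sham libraries to 32.9 to 47.0 CPM after MI (log2 fold change -0.78, adjusted p = 0.00332 in edgeR). Panx1, a large-pore ATP release channel, rose from 2.56 to 4.07 CPM to 10.1 to 16.6 CPM in 3 MI libraries and was at 3.55 CPM in fl/fl-MI 2 (1.78, adjusted p = 0.0217 in edgeR). Tmem120a and Lrrc8a both had 0.38 and were not called. Of 4 tested Ca2+-activated channel and scramblase genes, Ano1 (-1.26, adjusted p = 0.00249 in edgeR) and Ano10 (-0.39, adjusted p = 0.0303 in edgeR) fell, and Ano6 (0.01) and Kcnn2 (-0.16) were not called. In the comparison of CKO-MI with fl/fl-MI, 0 genes of these 6 lists were called.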

How the data were processed

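Poly(A) RNA of 8 mouse myocardium libraries, 2 per group as labelled, was sequenced by the authors as paired-end reads. Per the labels, reads were processed with cutadapt 1.9 and FastQC. The aligner, counter and build are not given in the sources used here. All 39 members were found in GENCODE M21 on GRCm38, 30 with the same coordinates. The authors deposited whole-number counts per gene and transcript (73821747 to 88117573 per library, about 4 per read pair) and the authors' FPKM, scaled to length and library size. Genes were kept from a mean of 0.5 FPKM upward and tested with edgeR 4.0.16 in R 4.3.3 on deposited counts, with TMM and 1 mean per group over all 8 libraries. The methods for RNA sequencing name no test. SE came from the fold change and F, and intervals are 95%.

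1 tested member is not reported here, though counts over the members include it. The members and lists were chosen with earlier results of these data known. Other members above the filter are named, with full values for those called with MI and the 3 smallest p elsewhere, and list genes by smallest p. Replicate numbers did not pair libraries (correlations of deviations -0.21 to 0.06). Alternatives were RLE, total counts, TMM without mitochondrial genes, no filter, at least 1 FPKM, DESeq2 1.42.0, limma 3.58.1 on log2(FPKM + 1) and log2(FPKM + 0.1), counts divided by 4, a replicate block and each library left out. A crossed block and 2 fits without genotype were added after seeing the data. The tests were tried on simulated data. Tables used Python 3.11.15 with pandas 2.3.3. The precision is limited by 2 libraries per group.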

Additional observations from a re-analysis of the deposited data

Results flagged for a closer look

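Among the sham libraries, Pkd2 was at 106 CPM in the library labelled CKO-Sham 2 and between 85.2 and 87.8 CPM in the other 3, a gap of 0.873 of the range. Trpv2 was at 7.60 CPM in the library labelled fl/fl-Sham 2 and between 5.53 and 5.80 CPM in the other sham libraries, a gap of 0.867. Among the MI libraries, Tmc7 was at 5.88 CPM in the library labelled CKO-MI 1 and between 3.37 and 3.52 CPM in the other 3, a gap of 0.938. Each value stood apart from its 3 neighbours by more than Dixon's 95% limit. These were 3 of 36 sets of 4 libraries looked at, and chance gives about 1 in 20.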

How the results depend on the processing

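On total counts, with limma on log2(FPKM + 1) and with limma on log2(FPKM + 0.1), the MI difference of Piezo1 turned to 0.14, 0.13 and 0.14, that of Tmc6 to 0.24, 0.20 and 0.23, that of Trpv2 to 0.30, 0.15 and 0.24 and that of Trpc1 to 0.54, 0.27 and 0.49. These scales moved the median of all genes to between 0.41 and 0.59. Trpc1 was at 0.042 without a filter, where Piezo1 missed the threshold (-0.35, adjusted p = 0.0916 in edgeR). With the libraries that Esr1 puts against their labels left out, Piezo1 also missed it (-0.41, adjusted p = 0.0567 in edgeR), Tmem63b was at -0.013 and Trpc1 at 0.25. That fit held no sham library labelled CKO, so MI and the labelled genotype cannot be told apart in it. The cause was not tested.

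With each library left out in turn, the lone library of a group was assumed to vary like the others. Members called ranged from 0 to 7 for fl/fl-MI against fl/fl-Sham, 0 to 13 for CKO-MI against CKO-Sham, 0 to 4 between the MI groups and 0 to 1 for the interaction. Piezo1 ranged from -0.49 to -0.36 with MI and from -0.084 to 0.18 between the MI groups. Tmem63b ranged from -0.051 to 0.15, Pkd2 from -0.046 to 0.81 and Trpc1 from -0.16 to 0.082. The longer full-length Piezo1 model, ENSMUST00000156333, ranged from -0.89 to -0.48 with MI and from -0.75 to 0.10 between the MI groups, where ENSMUST00000123671 ranged from -0.31 to 0.24. The replicate block left the counts of members called at 10, 4, 6, 0, 0 and 0 in the order of the comparisons above. The crossed block gave the same counts. The share of all genes called was lower with either block. For MI against sham over both genotypes it was 40.4% in the main fit, 36.2% with the replicate block and 38.2% with the crossed block. For fl/fl-MI against fl/fl-Sham it was 18.5%, 12% and 15.1%, and for CKO-MI against CKO-Sham 24.7%, 19.1% and 22%. As the replicate numbers did not pair the libraries, nothing is read from the block.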

Other observations

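Markers of other cell types were counted for the MI comparison, in which 22% of all tested genes were called higher and 18.3% lower. Erythroid markers were higher in 4 of 4, mesothelial markers in 2 of 4, macrophage markers in 3 of 7 and atrial markers in 1 of 5. Of 7 cardiomyocyte markers 3 were higher and 1 lower, and adipocyte markers were lower in 1 of 4. Of 4 tested Schwann cell and neuron markers 2 were lower, and 0 lymphocyte, neutrophil or melanocyte markers were called, of 1, 3 and 1 tested.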
